A study of Mus musculus with 12 samples.

Results

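Expression of 10 genes for secreted growth and inflammatory factors was examined in eosinophils from bone marrow and blood. The genes were Tgfb1, Vegfa, Igf1 and Areg (growth factors), Osm and Il6 (IL-6 family cytokines), Tnf, Tnfsf13 and Tnfsf13b (TNF family ligands) and Il16 (a chemoattractant). They were chosen by symbol, as secreted proteins through which eosinophils can act on adipose and other tissue cells, out of the 53801 genes of the deposited count table. The rule itself uses no measured value, although earlier results of these data were known when the genes were chosen. Each of the 10 symbols was found once among the table's Ensembl identifiers.

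RNA from eosinophils was sequenced as 12 libraries, 3 for each of 4 groups: control bone marrow, Atg5-knockout bone marrow, control blood and Atg5-knockout blood. Atg5-knockout animals were Atg5 flox/flox eoCre Il5tg mice, in which exon-flanking loxP sites let Cre delete Atg5, a gene needed to build autophagosomes, and control animals were eoCre Il5tg mice with intact Atg5. Both genotypes therefore carried Cre, knocked into the eosinophil peroxidase gene Epx and used in heterozygous form, and an Il5 transgene driven by the Cd3d promoter of T cells, so that no group was free of the transgene or of the altered Epx allele. The series design counts 3 mice of each genotype, their ages were not given in the sources used here, and the labels do not say whether a number shared by a blood and a bone marrow library means the same animal, so p-values measure the spread between these samples. Eosinophils were obtained in both tissues by removing cells that carried surface markers of other lineages, CD8α, CD90.2 and Ly6G among them, and blood was first spun through a density medium and its red cells lysed. Tissue and these additional steps cannot be told apart in any comparison of blood with bone marrow.

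Eosinophils are granulocytes that mature in bone marrow under IL-5 and reach the tissues through blood. Besides granule proteins they can release growth factors and cytokines, and in adipose tissue they are known for supporting type 2 immunity and thermogenic fat. Such factors differ in how they are made: TGF-β1 is secreted in a latent complex that must be activated, amphiregulin and TNF are shed from membrane precursors, APRIL and BAFF (Tnfsf13 and Tnfsf13b) are cleaved by furin-type proteases, and IL-16 is cut from a large precursor. The messages of several cytokines are short-lived because proteins such as tristetraprolin (Zfp36) bind AU-rich sites in their 3′ untranslated regions.

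The sequences of that site are shown first because they set some members apart from others by a feature the choice did not use. In the canonical transcripts of GENCODE M39 (GRCm39), the sense-strand heptamer TATTTAT occurred in the 3′ untranslated region of 6 of the 10 genes, compared with 29.5% of 20715 protein-coding transcripts. Tnf held 8 matches, Osm 3, Vegfa 3, and Il6, Areg and Tnfsf13b 1 each, while Tgfb1, Igf1, Il16 and Tnfsf13 held none. The first match of each of the 4 genes that the results turn on is printed 5′ to 3′, with the heptamer in capitals. Matches describe letters in the sequence and are not measured binding sites.
Osm: gcaagacacttTATTTATccgaatgtcag
Vegfa: ttaatttcaacTATTTATgagatgtatct
Il6: tttatgattgaTATTTATtatttttatga
Tnf: cagcccccctcTATTTATatttgcactta

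The 250 bases before a RefSeq start (GRCm38.p6, the build of the count table) are printed for 3 inducible genes: Vegfa, higher in blood than in bone marrow in both genotypes, Il6, lower in both, and Tnf, which was lower with an adjusted p under 0.05 in Atg5-knockout mice but not in control mice. Of the 10 genes, 9 matched the RefSeq promoter table, some with more than 1 start, and the Vegfa window printed is the more upstream of its 2. Both strands were searched for 5 motifs that are textbook elements of inducible or constitutive promoters: an AP-1 site (TGANTCA), a kappaB site (GGGNNTTTC), a STAT site (TTCNNNGAA), a hypoxia element core (ACGTG or GCGTG) and a GC box (GGGCGG). Capitals mark every match, and no matches overlapped in these 3 windows. Vegfa lay on the minus strand at chr17:46032378-46032627, Il6 on the plus strand at chr5:30012864-30013113 and Tnf on the minus strand at chr17:35202008-35202257.
Vegfa: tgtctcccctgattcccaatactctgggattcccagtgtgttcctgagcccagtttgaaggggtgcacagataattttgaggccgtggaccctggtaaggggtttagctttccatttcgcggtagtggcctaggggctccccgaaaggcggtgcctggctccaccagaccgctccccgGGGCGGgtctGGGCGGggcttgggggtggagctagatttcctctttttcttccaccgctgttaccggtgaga
Il6: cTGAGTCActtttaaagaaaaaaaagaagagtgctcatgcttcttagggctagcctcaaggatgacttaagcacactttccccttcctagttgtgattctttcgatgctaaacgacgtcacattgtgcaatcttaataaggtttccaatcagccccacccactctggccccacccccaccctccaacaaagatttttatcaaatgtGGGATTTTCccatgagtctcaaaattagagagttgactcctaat
Tnf: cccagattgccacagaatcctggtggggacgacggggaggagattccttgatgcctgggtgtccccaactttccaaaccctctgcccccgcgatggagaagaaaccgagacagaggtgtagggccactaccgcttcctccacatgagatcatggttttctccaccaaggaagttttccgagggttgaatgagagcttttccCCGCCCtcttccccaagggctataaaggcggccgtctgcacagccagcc

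The Vegfa window held 2 GC boxes and the Tnf window 1, a motif present in 32.7% of all 32851 windows. The Il6 window held 1 AP-1 site, found in 6.75% of windows, and 1 kappaB site, found in 3.72%. None of the 3 windows printed held a STAT site (7.02% of windows) or a hypoxia element core (38.6%). The window of the second Vegfa start, at chr17:46025164-46025413, held 2 hypoxia element cores and 1 GC box. A window without a match says only that these letters are not in it.

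Total counts ran from 18885052 to 30270166 per library. Levels are given as CPM (a gene's counts as a share of the library, scaled by TMM), and as RPKM, which also divides by exon length, where different genes are compared. The targeted gene Atg5 did not pass the test: its log2 fold change in Atg5-knockout relative to control was -0.44 ± 0.11 (SE, adjusted p = 0.157) in bone marrow, with all 3 Atg5-knockout libraries below the controls, and -0.0079 ± 0.22 (adjusted p = 1) in blood, where the groups overlapped. Counts over the whole gene include exons outside the deleted part. This holds for both tissues, and why their values differed was not tested. In blood, Atg5 counts thus give no check of the genotype labels. The study also measured Atg5 mRNA by qPCR and ATG5 protein by immunoblot in eosinophils of both tissues. All 10 eosinophil markers had counts in every library, and their summed share of counts was 8.04 to 10.2% in bone marrow and 1.80 to 4.05% in blood.

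Other cell types were read from marker lists, as summed shares of counts. The 13 neutrophil markers made up 2.30 to 3.30% in bone marrow and 1.25 to 2.22% in blood, the 12 monocyte and macrophage markers 0.202 to 0.268% in all libraries, the 12 platelet markers 0.0299 to 0.0630%, the 10 basophil and mast cell markers 0.0119 to 0.0172% in blood and 0.0327 to 0.0395% in bone marrow (Tpsb2 at 0 in all 12 libraries), and the 10 stromal and endothelial markers 0.0115 to 0.0199%, most of it from Pecam1 (120 to 166 CPM). Most of the platelet share came from Itgb3 (161 to 324 CPM) and Itga2b (50.1 to 199 CPM), whereas Ppbp ran from 0.930 to 104 CPM. The 10 NK and ILC markers summed to 0.0268 to 0.0572% in blood and 0.000730 to 0.00126% in bone marrow. Some libraries stood apart. Control blood library 1 had 14.8% of its counts in 10 red cell markers, against 0.140 to 1.44% in the other 11. Blood library 1 of each genotype was also high in the 10 B cell markers (0.235% in Atg5-knockout and 0.114% in control, against 0.0151 to 0.0403% elsewhere) and in the 10 T cell markers (0.0286 and 0.0161%, against 0.00101 to 0.00498%). Cd3e, a T cell marker, had no count in any bone marrow library, but most of the 10 T cell markers did. From 1 to 3 of them were at 0 per bone marrow library, and their summed share there was 0.00101 to 0.00123%.

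Mean levels per length spanned 418-fold over the 9 genes in control bone marrow (Areg, listed last, left out). In bone marrow of both genotypes the order by mean RPKM was Tgfb1 (52.9 in control), Osm (19.9), Il16 (12.1), Tnf (4.10), Vegfa (3.53), Il6 (1.93), Tnfsf13b (0.938), Tnfsf13 (0.420) and Igf1 (0.126). The ranges of Tnf and Vegfa overlapped in both genotypes and those of Osm and Il16 overlapped in Atg5-knockout mice, whereas the other neighbours were separate. In control blood the order became Osm (404 RPKM), Tgfb1 (74.3), Vegfa (12.7), Il16 (10.2) and Tnf (2.91), followed by Tnfsf13, Il6, Tnfsf13b and Igf1, each under 1 RPKM and each overlapping the next. In Atg5-knockout blood the same 5 genes led in the same order when all exon bases were used as the length. The ranges of Vegfa and Il16 overlapped in blood of both genotypes. Among 15879 protein-coding genes with a count, Osm ranked 159th by RPKM in control blood and 113th in Atg5-knockout blood, compared with 2209th and 2706th in bone marrow. Some levels are understated because reads that overlap more than 1 gene were not counted: 983 of the 1637 exon bases of Tnfsf13 are shared with another gene, Tnfsfm13 on the same strand, and 1368 of the 7865 exon bases of Il16 are shared with genes on the opposite strand, Stard5 and 2310044K18Rik. Divided by the unshared exon bases alone, the mean of Tnfsf13 was 1.05 RPKM in control bone marrow and 1.95 in control blood, and that of Il16 was 14.7 and 12.3. On that scale Tnfsf13 was at 1.85 RPKM in Atg5-knockout blood, above Tnf (1.24), and its mean in control bone marrow lay above that of Tnfsf13b.

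**Figure D1:**
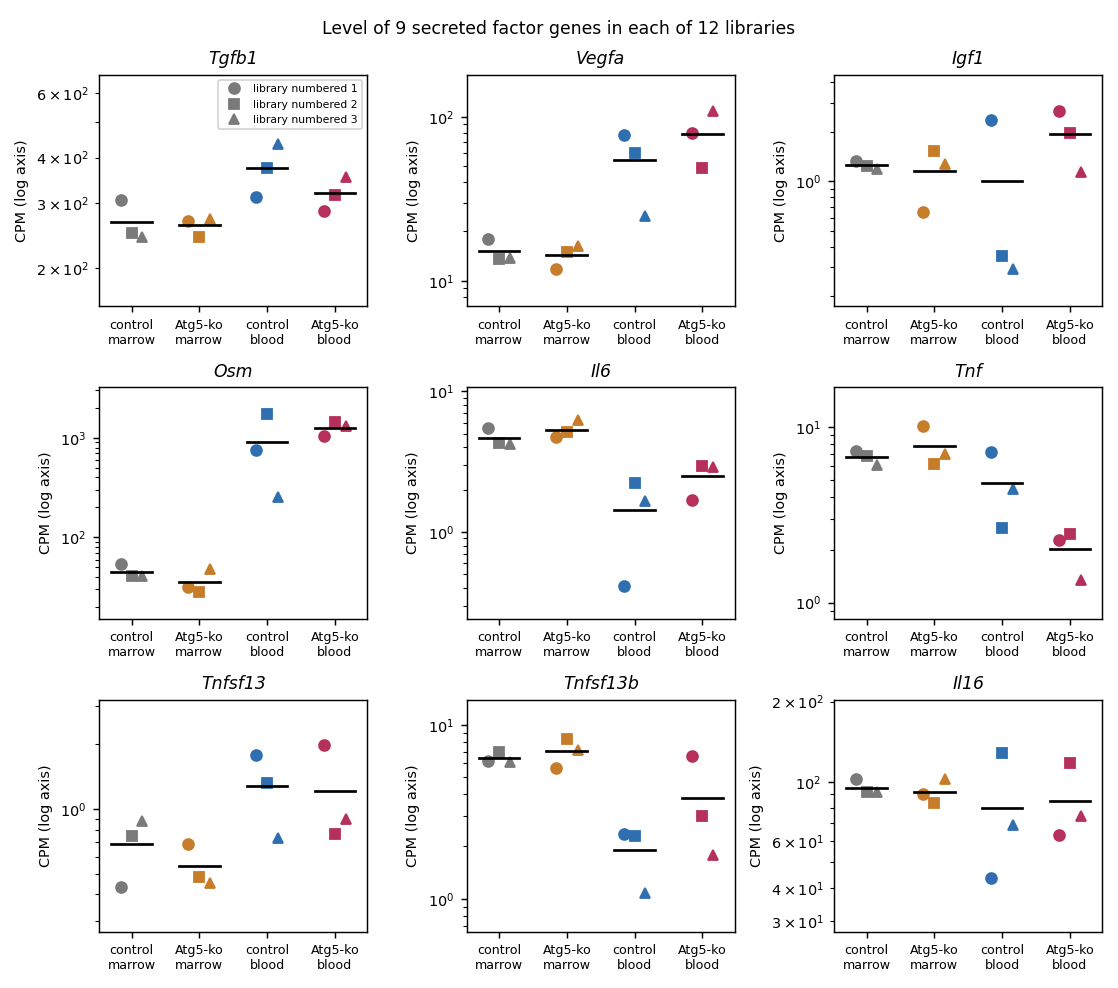
CPM of 9 of the 10 genes (log axis, a scale of its own in each panel) in the 12 libraries, with the group mean as a line and the library number as the symbol. All 6 blood libraries lie above all 6 bone marrow libraries for Osm and Vegfa and below them for Il6, and among blood libraries those numbered 1 are the highest of their genotype for Igf1, Tnfsf13 and Tnfsf13b.

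To see how these factors differ between maturing and circulating eosinophils, blood was compared with bone marrow in each genotype. Osm and Vegfa rose and Il6 fell in blood in both genotypes. In addition, Tnfsf13b fell in control mice, and Tgfb1 rose and Tnf fell in Atg5-knockout mice. In control mice, 4 of the 9 genes tested passed (2 higher, 2 lower), where 34.2% of 13669 genes tested did (16.2% higher, 18% lower). In Atg5-knockout mice 5 of 9 passed (3 higher, 2 lower), where 47.6% of 13853 genes did (23.5% higher, 24.1% lower). Of all genes, 30.2% passed in the same direction in both genotypes. Without overlap between the tissues stood 5 of 9 in control and 6 of 9 in Atg5-knockout mice, where 49.7% and 60.1% of all genes did. Read against these shares, the members were called about as often as genes in general. The median log2 fold change over the 9 genes was -0.24 in control and 0.35 in Atg5-knockout mice, against -0.0029 and -0.010 over all genes. Calls are at an adjusted p under 0.05 in edgeR's quasi-likelihood test, adjusted over all genes tested. Since these are bulk samples, fewer cells of a type and less RNA per cell cannot be told apart. NK and ILC markers rose with blood in both genotypes (9 of 10 tested), as did B cell markers (3 of 8 in control, 7 of 10 in Atg5-knockout mice) and T cell markers (2 of 4 and 8 of 9). Neutrophil markers fell in 5 of 13 (none rose) in control and in 7 of 13 (2 rose) in Atg5-knockout mice. Platelet markers rose in 10 of 12 in control mice (median log2 3.36) and in 3 of 11 in Atg5-knockout mice (1 fell, median 0.56), and red cell markers rose in 6 of 10 in control mice (median 4.6) and fell in 4 of 10 in Atg5-knockout mice. Monocyte and macrophage markers rose in 6 and fell in 2 of 12 in control mice, and rose in 5 and fell in 4 in Atg5-knockout mice. Eosinophil markers fell in 6 and rose in 2 of 10 in both genotypes, basophil and mast cell markers fell in 6 and 7 of 9 (1 rose), and stromal and endothelial markers fell in 5 of 6 in both (median -4.16 and -3.93). The part of these cells in the values was not tested.

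**Figure D2:**
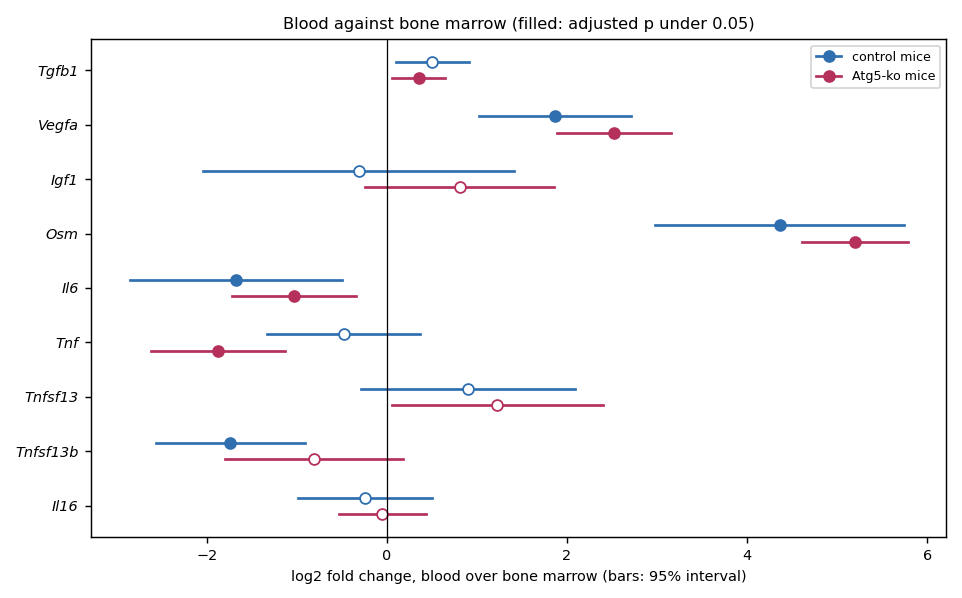
Log2 fold change of blood over bone marrow with its 95% interval for 9 genes, in control (blue) and Atg5-knockout mice (red). Filled points passed at an adjusted p under 0.05: Osm, Vegfa and Il6 in both genotypes, Tnfsf13b in control mice, and Tgfb1 and Tnf in Atg5-knockout mice.

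Osm (chr11:4236420-4241026, plus strand, GRCm38) encodes oncostatin M, an IL-6 family cytokine that acts on stromal, endothelial and fat cells. Its level was 53.5, 40.7 and 41.2 CPM in the 3 control bone marrow libraries and 31.5, 28.1 and 48.5 CPM in the Atg5-knockout ones. In blood it was 754, 1742 and 256 CPM in control and 1033, 1443 and 1312 CPM in Atg5-knockout libraries. The groups did not overlap between tissues, and control blood was the most variable group, with its library 3 the lowest in blood. Blood exceeded bone marrow 20.5-fold in control mice (log2 4.36 ± 0.61 (SE), adjusted p = 0.00102) and 36.6-fold in Atg5-knockout mice (log2 5.20 ± 0.26, adjusted p = 1.67e-06). Both calls held when any single library was left out, with log2 values of 3.53 to 4.81 and 5.03 to 5.46.

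Il6 (chr5:30013114-30019981, plus strand) encodes interleukin 6, the family's founding member and a regulator of acute-phase and fat tissue responses. It was 5.52, 4.31 and 4.23 CPM in control and 4.72, 5.13 and 6.22 CPM in Atg5-knockout bone marrow, and 0.414, 2.25 and 1.66 CPM in control and 1.68, 2.96 and 2.89 CPM in Atg5-knockout blood. All blood libraries lay below all bone marrow libraries, opposite to Osm. The log2 fold change was -1.67 ± 0.52 (adjusted p = 0.0358) in control and -1.03 ± 0.31 (adjusted p = 0.0216) in Atg5-knockout mice. These calls are less firm than those of Osm. Without control blood library 3 or any one control bone marrow library the adjusted p lay between 0.0619 and 0.116, and without any one Atg5-knockout bone marrow library between 0.0511 and 0.0930.

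Vegfa (chr17:46016993-46032369, minus strand) encodes the main growth factor of blood vessels and is induced by hypoxia. Its level was 18, 13.6 and 13.9 CPM in control and 11.8, 14.9 and 16.2 CPM in Atg5-knockout bone marrow. In blood it was 77.5, 60.3 and 24.8 CPM in control and 79.2, 48.7 and 108 CPM in Atg5-knockout mice. Every blood library was above every bone marrow library, and library 3 was the lowest in control blood and the highest in Atg5-knockout blood. Vegfa was 3.64-fold higher in blood in control (log2 1.86 ± 0.37, adjusted p = 0.00558) and 5.76-fold higher in Atg5-knockout mice (log2 2.52 ± 0.28, adjusted p = 0.000146). Leaving out any one library kept both calls.

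Tgfb1 (chr7:25687002-25705077, plus strand) encodes transforming growth factor β1, a regulator of fibrosis and immune tolerance. It was 307, 249 and 243 CPM in control and 268, 243 and 273 CPM in Atg5-knockout bone marrow, and 313, 374 and 437 CPM in control and 287, 316 and 355 CPM in Atg5-knockout blood. Control blood library 1 had the lowest Tgfb1 of its group. In that library the platelet marker Pf4 was at 33.6 CPM, against 3.79 and 6.02 CPM in the other control blood libraries. Red cell markers made up 14.8% of its counts. The part of platelets and red cells in the Tgfb1 values was not tested. Within each genotype all blood libraries were above the bone marrow libraries, although the lowest blood values were close to the highest bone marrow ones. The log2 fold change of 0.35 ± 0.13 in Atg5-knockout mice passed (adjusted p = 0.0478), and 0.51 ± 0.18 in control mice did not (adjusted p = 0.0539). The first call was lost without any one of 5 of the 6 libraries (adjusted p up to 0.200, blood library 1 the exception) and under 4 of the 7 alternatives. With library size alone as the scaling, under which the median of all genes fell to -0.24 on the log2 scale, Tgfb1 was at 0.12 (adjusted p = 0.367, range over the alternatives 0.0364 to 0.367). Control mice passed with 4 of the alternatives and when blood library 1 was left out (0.61, adjusted p = 0.00886, range over the 6 libraries left out 0.00886 to 0.232).

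Tnf (chr17:35199381-35202007, minus strand) encodes tumour necrosis factor, a pro-inflammatory ligand. It was 7.26, 6.86 and 6.05 CPM in control and 10.1, 6.16 and 7.05 CPM in Atg5-knockout bone marrow. In blood it was 7.22, 2.64 and 4.45 CPM in control and 2.27, 2.47 and 1.34 CPM in Atg5-knockout libraries. Control blood library 1 reached the bone marrow level, while the 3 Atg5-knockout blood libraries were the lowest of all 12. Tnf fell by 1.87 ± 0.33 on the log2 scale in Atg5-knockout blood (adjusted p = 0.00171), and the difference in control mice was -0.48 ± 0.38 (adjusted p = 0.356). Without control blood library 1, the library rich in red cell and lymphocyte markers, the control difference was -0.92 (adjusted p = 0.0328, range over the 6 libraries left out 0.0328 to 0.720).

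Tnfsf13b (chr8:10006467-10039072, plus strand) encodes BAFF, a survival factor of B cells. It was 6.20, 7.01 and 6.12 CPM in control and 5.61, 8.32 and 7.20 CPM in Atg5-knockout bone marrow, and 2.37, 2.29 and 1.08 CPM in control and 6.65, 3.01 and 1.79 CPM in Atg5-knockout blood. In control mice the groups did not overlap and Tnfsf13b fell by 1.74 ± 0.37 on the log2 scale (adjusted p = 0.00710). In Atg5-knockout mice blood library 1 lay within the bone marrow range and the difference was -0.81 ± 0.44 (adjusted p = 0.154). Without that library it was -1.49 (adjusted p = 0.00238, range over the 6 libraries left out 0.00238 to 0.335).

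Tnfsf13 (chr11:69682846-69685784, minus strand) encodes APRIL, which sustains plasma cells. It was 0.434, 0.749 and 0.879 CPM in control and 0.689, 0.484 and 0.450 CPM in Atg5-knockout bone marrow, and 1.78, 1.32 and 0.734 CPM in control and 1.98, 0.763 and 0.896 CPM in Atg5-knockout blood. Blood was above bone marrow in all Atg5-knockout libraries and overlapped it in control mice. Neither difference passed: the log2 fold change was 1.23 ± 0.52 in Atg5-knockout (adjusted p = 0.0801) and 0.90 ± 0.52 in control mice (adjusted p = 0.212).

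Igf1 (chr10:87858265-87937042, plus strand), the gene of insulin-like growth factor 1, had few reads. It was 1.33, 1.24 and 1.18 CPM in control and 0.654, 1.52 and 1.27 CPM in Atg5-knockout bone marrow, and 2.37, 0.353 and 0.293 CPM in control and 2.65, 1.97 and 1.14 CPM in Atg5-knockout blood. Control blood library 1 was several times above the other control blood libraries, and the groups overlapped. The log2 fold change was -0.31 ± 0.76 in control (adjusted p = 0.777) and 0.81 ± 0.46 in Atg5-knockout mice (adjusted p = 0.180). Without control blood library 1 the control value became -1.93 (adjusted p = 0.0138, range over the 6 libraries left out 0.0138 to 0.927).

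Of these lowly expressed genes, Igf1, Tnfsf13 and Tnfsf13b were highest in blood library 1 of each genotype, the pair of libraries with the most B and T cell transcripts. The part of B and T cells in these 3 genes' values was not tested.

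**Figure D3:**
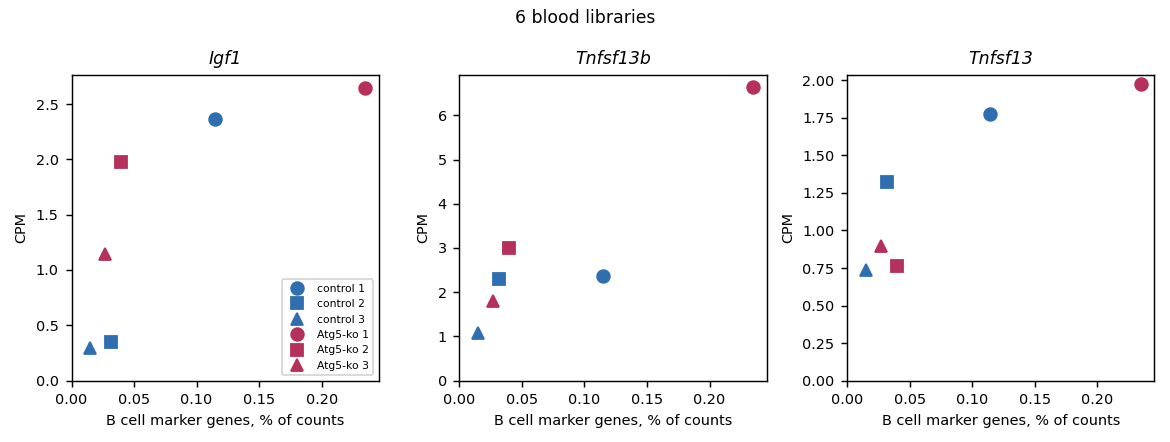
CPM of Igf1, Tnfsf13b and Tnfsf13 in the 6 blood libraries against the share of counts in 10 B cell marker genes. The libraries numbered 1 (circles) lie farthest right, at 0.114% in control and 0.235% in Atg5-knockout mice, and are the highest of their genotype in every panel.

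Il16 (chr7:83642825-83745726, minus strand) encodes a precursor whose processed form attracts CD4-bearing cells, eosinophils among them. It was 103, 91.3 and 91.8 CPM in control and 90.3, 83.1 and 103 CPM in Atg5-knockout bone marrow, and 43.4, 128 and 68.7 CPM in control and 63.2, 118 and 74.5 CPM in Atg5-knockout blood. Blood libraries were spread to both sides of the narrow bone marrow range. The log2 fold change was -0.24 (95% interval -0.98 to 0.50) in control and -0.051 (-0.53 to 0.43) in Atg5-knockout mice. Neither passed, and differences within these intervals remain compatible with the data. The value in control mice moved to -0.74 (adjusted p = 0.0396, range over the 6 libraries left out 0.0396 to 0.874) without control blood library 2.

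Areg (chr5:91139599-91148432, plus strand) encodes amphiregulin, an EGF receptor ligand linked to tissue repair and fibrosis. It had 4 counts in all, every one of them in Atg5-knockout blood library 1, which equals 0.168 CPM. In the other 11 libraries it had 0 counts, which allows up to 0.0930 to 0.178 CPM at 3 counts per library. Areg was not tested and no fold is given. This floor covers counting error only.

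The knockout comparison asked whether loss of Atg5 in eosinophils changes these factors. None of the 9 genes tested passed in either tissue. In bone marrow 0.348% of 13781 genes passed and in blood 0.0371% of 13460. In bone marrow Osm had the lowest p: Atg5-knockout libraries averaged 36.0 ± 11 CPM and controls 45.1 ± 7.24 CPM (SD, n = 3), which gives a log2 difference of -0.36 ± 0.19 with an unadjusted p of 0.0729 in edgeR's test and an adjusted p of 0.564. The other 8 genes differed by log2 values between -0.38 (Tnfsf13) and 0.17 (Tnf). The groups overlapped for all 9, a description only, since the share over all genes in bone marrow is not reported here. Intervals were narrow for Tgfb1 and Il16 and wider for Vegfa and Osm. On the log2 scale the 95% interval in bone marrow was -0.32 to 0.18 for Tgfb1 and -0.33 to 0.15 for Il16. It was -0.47 to 0.22 for Vegfa and -0.77 to 0.039 for Osm. Among markers of other cells, those of red cells had a median log2 fold change of 1.31 in bone marrow, and 1 of 10 passed (higher). Platelet markers had a median of 0.61 and none passed. The other marker lists had medians between -0.035 and 0.24, with none passing. The part of these cells in the bone marrow values was not tested.

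**Figure D4:**
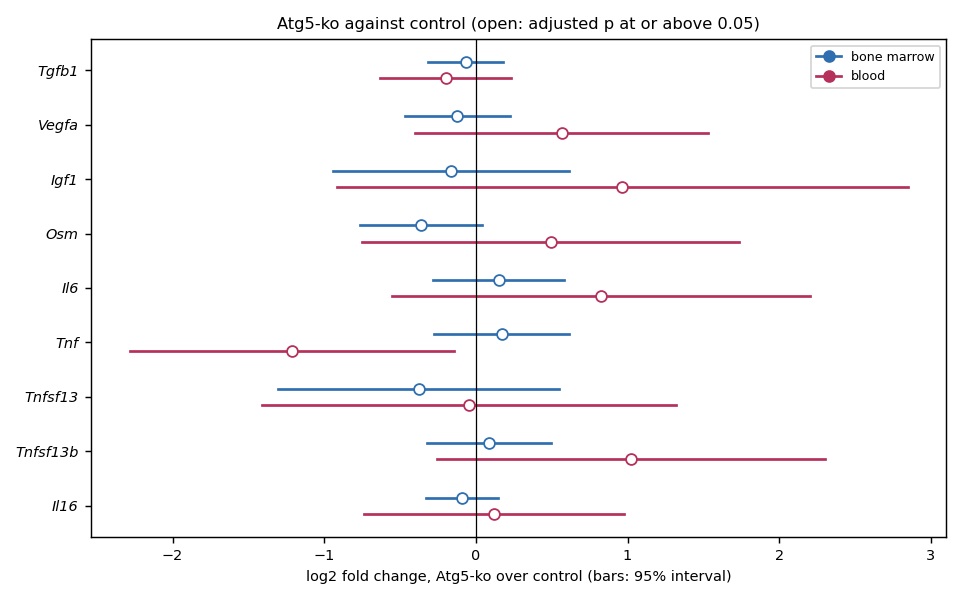
Log2 fold change of Atg5-knockout over control with its 95% interval for 9 genes in bone marrow (blue) and blood (red). No point is filled, since none passed at an adjusted p under 0.05, and the blood intervals are wider than those of bone marrow for every gene.

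In blood the values spread more. Tnf had the lowest p: its mean was 2.03 ± 0.601 CPM in Atg5-knockout and 4.77 ± 2.31 CPM in control blood (SD, n = 3), every Atg5-knockout library was below every control, and the log2 fold change was -1.21 ± 0.47 (unadjusted p = 0.0308 and adjusted p = 1 in edgeR's test). Over all genes, 7.54% showed no overlap between the blood groups. Tnfsf13b (log2 1.02 ± 0.56), Igf1 (0.96 ± 0.83) and Il6 (0.82 ± 0.61) had higher means in Atg5-knockout blood, and none passed. Markers of other cells also differed between the blood groups, although none passed. Their median log2 fold change was -3.49 for red cell, -1.97 for platelet, 0.91 for B cell and 0.56 for T cell markers. Single libraries stood out here. The red cell share was 14.8% in control library 1, 0.545 and 1.44% in the other controls, and 0.427 to 0.739% in Atg5-knockout libraries. The B cell share was 0.235% in Atg5-knockout library 1 and 0.0395 and 0.0269% in the other Atg5-knockout libraries. It was 0.114% in control library 1. The other marker lists had medians between -0.33 and 0.11. The part of these cells in the values was not tested. Vegfa was at 0.56 (95% interval -0.40 to 1.53), Osm at 0.49 (-0.75 to 1.73), Tgfb1 at -0.20 (-0.63 to 0.23), Il16 at 0.12 (-0.74 to 0.98) and Tnfsf13 at -0.045 (-1.41 to 1.32).

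Blood libraries of the same number deviated together, so the pairs were also read one by one. Tnf and Tgfb1 were lower in the Atg5-knockout library of all 3 pairs, and Igf1, Il6 and Tnfsf13b were higher in all 3, which is 5 of 9 genes where 30.6% of all genes kept 1 direction (14.5% higher, 16.1% lower). For Tnf the log2 ratios of the pairs were -1.67, -0.10 and -1.73, and for Il6 they were 2.02, 0.40 and 0.80. Igf1 had ratios of 0.16, 2.49 and 1.96, and Tnfsf13b of 1.49, 0.39 and 0.74. Osm and Vegfa were mixed, with pair 3 far above the others at 2.36 and 2.12. With the number as a block in the fit, no gene of the 9 passed either: Tnf was at -1.14 ± 0.41 (adjusted p = 0.615), Tnfsf13b at 0.91 ± 0.37 (adjusted p = 0.652), Igf1 at 1.45 ± 0.62 (adjusted p = 0.657) and Il6 at 1.004 ± 0.47 (adjusted p = 0.667). With both blood libraries numbered 1 left out, a setting chosen after the data were seen, again no member passed.

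Whether the effect of the knockout differed with tissue, which equals asking whether the effect of tissue differed with genotype, was tested as an interaction in all 12 libraries. None of 14712 genes passed, with 740 at an unadjusted p under 0.05 and 11 called by DESeq2, none of them a member. Hence Tnf, Tgfb1 and Tnfsf13b, each called in 1 genotype only, were not shown to differ between genotypes in their tissue effect. The interaction was -1.42 ± 0.51 for Tnf (unadjusted p = 0.0157 and adjusted p = 0.930 in edgeR's test), -0.18 ± 0.21 for Tgfb1 (adjusted p = 0.960) and 0.89 ± 0.60 for Tnfsf13b (adjusted p = 0.942).

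Genes around these factors were read from 5 lists: 41 related ligands, 26 receptors, 27 genes of processing and carriers, 18 regulators of the messages and 21 response genes. No gene of any list passed in either knockout comparison. In bone marrow 1 regulator did with DESeq2, 3 genes did with no filter, and 3 did without control library 1. Between blood and bone marrow, where 34.2% of all genes passed in control and 47.6% in Atg5-knockout mice, the shares of tested genes that passed were 57.9% and 82.4% for related ligands, 35% and 70% for receptors, 46.7% and 56.2% for processing and carriers, 77.8% and 83.3% for regulators, and 70% and 81% for response genes. Receptors in control mice were thus at the background share, and genes of processing and carriers were near it in Atg5-knockout mice. Of the related ligands tested, 7 rose and 4 fell of 19 in control and 11 rose and 3 fell of 17 in Atg5-knockout mice. Lif, an IL-6 family relative of Osm, rose by 4.55 ± 0.68 in control and 4.41 ± 0.49 in Atg5-knockout mice (log2 ± SE). Pdgfb, a growth factor of mesenchymal cells, rose by 4.39 ± 0.48 in control and 3.24 ± 0.47 in Atg5-knockout mice. Platelets also carry Pdgfb and Thbs1 (described with the carriers), and the part of the higher platelet markers in both genes was not tested. Fasl, a death ligand of cytotoxic lymphocytes, was at 1 count over the 3 control and 0 over the 3 Atg5-knockout bone marrow libraries and averaged 7.07 and 6.09 CPM in blood, at least 176-fold higher in Atg5-knockout blood against 3 counts over the group. NK and ILC markers were higher in the same libraries, and their part in Fasl was not tested. Inhba, an activin subunit, fell, with -3.57 ± 0.65 in control and -3.91 ± 0.40 in Atg5-knockout mice. Vegfb, a VEGF relative, fell, with -2.08 ± 0.31 in control and -1.58 ± 0.31 in Atg5-knockout mice, and Tnfsf14, the TNF family ligand LIGHT, fell, with -1.31 ± 0.24 in control and -0.83 ± 0.21 in Atg5-knockout mice.

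Receptors were divided. In control mice 5 rose and 2 fell of 20 and in Atg5-knockout mice 9 rose and 5 fell of 20. With library size alone the splits were 5 and 6, and 8 and 7. Tgfbr3, a TGF-β co-receptor, rose by 3.97 ± 0.61 in control and 3.74 ± 0.43 in Atg5-knockout mice, the VEGF receptor Flt1 by 1.89 ± 0.50 in control and 2.05 ± 0.50 in Atg5-knockout mice, and the EGF receptor family member Erbb2 by 2.91 ± 0.80 in control and 3.24 ± 0.57 in Atg5-knockout mice. Il6st, the gp130 chain through which IL-6 and oncostatin M signal, fell, with -1.59 ± 0.36 in control and -1.56 ± 0.34 in Atg5-knockout mice, from 40.2 and 46.5 CPM in bone marrow to 13.2 and 15.1 CPM in blood. Eng, another TGF-β co-receptor, fell, with -1.48 ± 0.36 in control and -2.18 ± 0.49 in Atg5-knockout mice. In control mice the call of Erbb2 was lost without blood library 3 or any one bone marrow library, that of Flt1 without bone marrow library 1 or 3 and that of Eng without bone marrow library 2, at adjusted p of up to 0.0919, 0.0829 and 0.0592.

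In the list of processing and carriers, 5 rose and 2 fell of 15 in control and 7 rose and 2 fell of 16 in Atg5-knockout mice (4 and 3, and 4 and 3, with library size alone). Thbs1, an activator of latent TGF-β, rose by 4.21 ± 0.60 in control and 3.31 ± 0.30 in Atg5-knockout mice. Furin, the protease of the TGF-β, APRIL and BAFF precursors, rose by 1.20 ± 0.25 in control and 1.26 ± 0.17 in Atg5-knockout mice. Igfbp5, an IGF carrier, had 61 counts over the control and 104 over the Atg5-knockout bone marrow libraries and 0 and 1 in blood. Stromal markers moved the same way: Col1a2 was at 2.44 to 6.26 CPM in bone marrow and had no count in blood, and Cxcl12 was at 1.18 to 3.71 CPM in bone marrow and at most 0.0592 CPM in blood. Their part in the value of Igfbp5 was not tested.

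Regulators of the messages were among the most often called: 9 rose and 5 fell of 18 in control, and 11 rose and 4 fell in Atg5-knockout mice (7 and 6, and 9 and 6, with library size alone). Zfp36, whose protein binds the heptamer printed above, rose by 2.63 ± 0.27 in control and 3.42 ± 0.17 in Atg5-knockout mice, reaching 791 and 1056 CPM in blood. Its paralog Zfp36l1 rose by 1.95 ± 0.43 in control and 3.51 ± 0.41 in Atg5-knockout mice, and Zc3h12a, an endonuclease that cuts the Il6 message, by 2.65 ± 0.21 in control and 2.44 ± 0.21 in Atg5-knockout mice. The members with the heptamer went both ways, since Osm and Vegfa rose and Il6 fell in both genotypes. Tnf, with 8 matches, fell in Atg5-knockout mice only (-1.87 ± 0.33), and Tnfsf13b in control mice only (-1.74 ± 0.37), at an adjusted p under 0.05. The part of these regulators in the members' levels was not tested. Egln3 and Egln1, oxygen sensors that limit hypoxic induction of Vegfa, fell, Egln3 with -1.55 ± 0.25 in control and -1.34 ± 0.17 in Atg5-knockout mice and Egln1 with -0.84 ± 0.16 in control and -0.58 ± 0.12 in Atg5-knockout mice. Khsrp, a decay factor for AU-rich messages, fell, with -0.71 ± 0.24 in control and -0.76 ± 0.17 in Atg5-knockout mice, and its call in control mice was lost under 2 alternatives and without 5 of the 6 libraries (blood library 1 the exception), at an adjusted p of up to 0.171.

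Response genes, which cells switch on when such factors signal, rose in 14 of 20 in control and 17 of 21 in Atg5-knockout mice, and none fell. Their median log2 fold change was 1.31 and 1.42. With library size alone 11 and 14 rose and none fell. Without control blood library 1, 14 rose and 1 fell of 21 in control mice. Traf1, a target of TNF, rose by 3.79 ± 0.37 in control and 4.52 ± 0.35 in Atg5-knockout mice and the AP-1 subunit gene Junb by 2.72 ± 0.31 in control and 3.50 ± 0.15 in Atg5-knockout mice. The knockout comparisons and the tissue comparisons share libraries, so their lists of called genes are not independent.

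**Figure D5:**
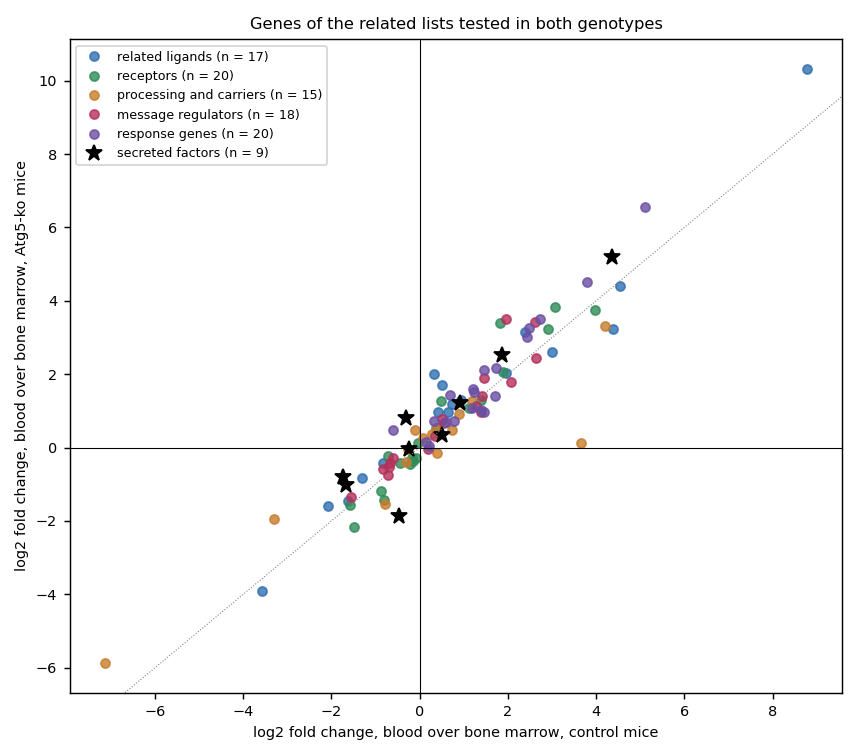
Log2 fold change of blood over bone marrow in control (x axis) and Atg5-knockout mice (y axis) for the genes of 5 related lists tested in both genotypes (circles) and 9 secreted factors (stars), with equal values on the dotted line. Most response genes lie in the upper right and the secreted factors lie to both sides of 0, with Osm the highest star, at 4.36 and 5.20.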

How the data were processed

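The authors sequenced stranded mRNA libraries as single-end reads, aligned them with HISAT2 2.2.1 and deposited raw counts per gene, made with featureCounts 2.0.1 on Ensembl release 92 (GRCm38) per the file headers, with no strand option and without reads that overlap several genes. The study's methods name a GRCm39 annotation instead. Counts were used as deposited, at the depth given above. The members and lists were chosen with earlier results of these data known, and the lists are written from textbook knowledge. Named list genes are the 3 of largest change called in both genotypes, in each direction (some are not reported here), and Cd3e, Tpsb2, Pf4, Pecam1, Col1a2 and Cxcl12 were chosen after their values were seen.

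Counts were tested with edgeR 4.0.16 in R 4.3.3 (quasi-likelihood, TMM, genes kept by its filter at a minimum count of 10 and a total of 15, Benjamini-Hochberg) on the 6 libraries of each comparison, and on all 12 for the interaction. Fold changes used a prior count of 0.125. The procedure was tested on simulated data. Alternatives were DESeq2 1.42.0, its size factors, scaling by library size alone, testing every gene, keeping genes at 1 CPM in 3 libraries, a fit of 12 libraries, the replicate number as a block, and each library left out. Symbols came from GENCODE M39. All 12 value columns were mapped to samples by their names.

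Replicate numbers pair the blood samples by the data alone: same-numbered libraries of both genotypes deviated from their group means with correlations of 0.50, 0.21 and 0.30. In bone marrow they correlated at -0.15, -0.10 and 0.0038, and between tissues at -0.10 to 0.13. The data thus gave no clear pairing there, and low correlations cannot tell whether those libraries share an animal.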

Additional observations from a re-analysis of the deposited data

How the results depend on the processing

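The calls of Osm and Vegfa between tissues held under all 7 alternatives and with each library left out. No member was called in a knockout comparison or in the interaction under any setting run. In Atg5-knockout mice the number of members called between tissues was 5, and 3 in the fit of 12 libraries, where Tgfb1 and Il6 did not pass. With each library left out it ranged from 3 to 6, and from 3 to 7 in control mice, where the full number was 4. Over all genes, the number called in bone marrow for the knockout was 48, and 192 with DESeq2, 420 with no filter, 12 in the fit of 12 libraries, 23 with the replicate block and 18 to 219 with each library left out, the extremes being without control library 3 and without control library 1. In blood it was 5, and 23 with DESeq2, 77 with no filter, 16 in the fit of 12 libraries, 10 with the replicate block and 2 to 6 with each library left out. For the interaction it was 0, and 11 with DESeq2, 119 with no filter, and 0 with each library left out. Between tissues it ranged from 2627 to 5926 in control (4678 with all libraries) and from 4584 to 7756 in Atg5-knockout mice (6592). With library size alone the median of all genes fell to -0.31 and -0.24 on the log2 scale between tissues, and the genes higher and lower numbered 1308 and 3906 in control (2212 and 2466 with TMM) and 2258 and 4333 in Atg5-knockout mice (3256 and 3336). The cause of these shifts was not tested.

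Directions that turned belonged to differences that had not passed. Tnfsf13 in blood (knockout) moved to 0.079 with library size alone. With each library left out, the log2 values for the knockout in bone marrow ranged -0.14 to 0.032 (Tgfb1), -0.23 to 0.0055 (Vegfa), -0.41 to 0.11 (Igf1), -0.070 to 0.32 (Tnf) and -0.042 to 0.22 (Tnfsf13b), and in blood -0.60 to 0.28 (Tnfsf13) and -0.17 to 0.62 (Il16). Between tissues they ranged -1.93 to 0.14 (Igf1, control), -0.74 to 0.051 (Il16, control) and -0.35 to 0.12 (Il16, Atg5-knockout), and for the interaction -0.23 to 0.61 (Tnfsf13) and -0.14 to 0.66 (Il16). The replicate block ended the call of Tgfb1 in Atg5-knockout mice (0.35, adjusted p = 0.0863) and changed no other call of a member. With each library left out, receptors that rose between tissues numbered 3 to 6 in control and 5 to 9 in Atg5-knockout mice, regulators that rose 6 to 9 and 8 to 11, and response genes that rose 11 to 14 and 13 to 17, the lowest each time without a bone marrow library. Low counts limit Igf1 (54 over the 3 control blood libraries) and Tnfsf13 (47 over the 3 Atg5-knockout bone marrow libraries).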

Other observations

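Genes whose levels followed a member most closely over the 12 libraries were read from Pearson correlations of log2 CPM across 14712 genes, as a description, since tissue, depth and library are shared by all points. Dusp1, a phosphatase gene of the immediate early response, followed Osm with r = 0.992, and Zfp36 with r = 0.990. Vegfa was followed by Cpeb2 (r = 0.984) and by the neutrophil-attracting chemokine gene Cxcl3 (r = 0.978), and Osm and Vegfa themselves correlated at r = 0.948. Il6 was followed by Lcmt1 (r = 0.974), Tnf by Ly6g5b (r = 0.955), Tgfb1 by Pld3 (r = 0.965), Tnfsf13 by Phlda1 (r = 0.934), Tnfsf13b by Prmt3 (r = 0.965) and Il16 by Tmem14c (r = 0.933). The closest gene to Igf1 was Il7r (r = 0.885), a receptor gene of lymphoid cells, nearly level with Klk1b27 (r = 0.881) and Whrn (r = 0.878). Il7r was at 14.1 and 12.4 CPM in blood library 1 of Atg5-knockout and control mice and at 0.489 to 3.23 CPM in the other 4 blood libraries. The part of lymphoid cells in this likeness was not tested.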
